A study of Homo sapiens and Mus musculus with 10 samples.

Results

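The 10 genes described here encode chaperones, folding enzymes and regulators of the endoplasmic reticulum in A375 cells, an established human melanoma line. They were taken by symbol from the human expression table, where all 10 were found among 63140 gene rows, and all 10 were among the 14399 genes that passed the filter on low values. They are HSPA5, HSP90B1, HYOU1, DNAJB9, DNAJC3, CALR, PDIA4, PDIA6, HERPUD1 and XBP1. The rule names them by symbol and uses no measured value, but they were chosen with earlier results of these data known. The cells received LL-37, the antimicrobial peptide cut from cathelicidin, at 80 µg/mL for 24 h (LL-37, n = 3) or were left without peptide (Ctrl, n = 3). Both groups were the same cell line with no genotype given, and the series text calls the libraries biological triplicates. The other 4 libraries of the series came from mouse skin and were not analysed here. The comparison asks how the melanoma cell transcriptome responds to the peptide.

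Secreted and membrane proteins fold in the endoplasmic reticulum. When unfolded proteins build up there, the membrane sensors IRE1, ATF6 and PERK start the unfolded protein response. ATF6 and spliced XBP1 are transcription factors that switch on chaperone, folding and degradation genes, many of them through a promoter element called ERSE, while PERK acts through translation and ATF4. Cancer cells, melanoma among them, often rely on this response.

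Expression was given as TPM, a transcript level scaled by transcript length and by library, so that levels can be compared between genes. TPM keep no read totals, so that depth is unknown and intervals for counting error are not given. In bulk RNA, fewer cells that express a gene and less of its RNA per cell cannot be told apart. One library, LL-37 replicate 3, differed from the rest: Pearson r between its log2(TPM + 1) and that of each other library lay between 0.949 and 0.963, while pairs without it lay between 0.985 and 0.992. Genes reaching 1 TPM numbered 12991 in it and 14304 to 14555 elsewhere. The log2 changes of the 10 genes and the medians of the gene lists are therefore given with and without that library. The label A375 was checked against markers, since the protocol text speaks of keratinocytes. SOX10, the neural crest and melanocyte factor, was 387, 343 and 147 TPM with LL-37 and 266 to 296 TPM in Ctrl, whereas the pigment genes TYR and MLANA were at or near 0. The keratinocyte genes TP63, DSG3 and KRT1 were at 0 in all 6 libraries, but others of that list were not. KRT10 was 20.2, 18.4 and 24.6 TPM with LL-37 and 25.05 to 26.1 TPM in Ctrl. KRT14 was 1.15 to 1.98 TPM and DSC3 0.92 to 2.35 TPM over the 6 libraries. Summed over 8 keratinocyte markers, the level was 21.3 to 26.8 TPM with LL-37 (21.3 to 24.1 TPM without replicate 3) and 28.8 to 29.98 TPM in Ctrl. Summed over 10 melanocyte markers, it was 247 to 672 TPM with LL-37 and 468 to 520 TPM in Ctrl, and LL-37 replicates 1 and 2, at 672 and 597 TPM, lay above the Ctrl range. The part of these shifts in the results below was not tested.

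The promoters show what the genes share in sequence. RefSeq windows from 250 bases before to 50 bases after the annotated start (GRCh38.p14) were found for all 10 genes and searched on both strands for 3 elements. These were ERSE (CCAAT and CCACG with any 9 bases between them), ERSE-II (ATTGG and CCACG with any 1 base between them) and UPRE (TGACGTGG). ERSE is bound by the factor NF-Y together with ATF6, and UPRE by spliced XBP1 or ATF6. An exact ERSE lay in the windows of 5 of the 10 genes and an exact ERSE-II in those of 2 others, so that 7 of 10 genes held one of them. Over all 35116 windows, 0.0769% held an ERSE, 0.0541% an ERSE-II and 0.729% a UPRE. By gene, 0.161% of the 27305 genes with a window held an ERSE or ERSE-II. The 10 genes were listed as being of the ATF6 and XBP1 type, so that their high share is no independent result. HSPA5 is shown whole as the best known target of the response, and HYOU1 because its window held 2 ERSE-II and the only UPRE of the set, which overlaps the first of them. Both are written 5′ to 3′ on the strand of the gene, with the matches in capitals. The 2 ERSE-II of HYOU1 run opposite to the gene, so that they read as the reverse complement. The HSPA5 window is chr9:125241294-125241593 on the minus strand, and the HYOU1 window is chr11:119057156-119057455 on the minus strand.
HSPA5: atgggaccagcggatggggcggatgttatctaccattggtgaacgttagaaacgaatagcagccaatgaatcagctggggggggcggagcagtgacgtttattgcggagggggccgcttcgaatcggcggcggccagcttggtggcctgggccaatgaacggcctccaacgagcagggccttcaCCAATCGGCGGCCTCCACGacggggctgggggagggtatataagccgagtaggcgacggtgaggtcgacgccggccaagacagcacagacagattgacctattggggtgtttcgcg
HYOU1: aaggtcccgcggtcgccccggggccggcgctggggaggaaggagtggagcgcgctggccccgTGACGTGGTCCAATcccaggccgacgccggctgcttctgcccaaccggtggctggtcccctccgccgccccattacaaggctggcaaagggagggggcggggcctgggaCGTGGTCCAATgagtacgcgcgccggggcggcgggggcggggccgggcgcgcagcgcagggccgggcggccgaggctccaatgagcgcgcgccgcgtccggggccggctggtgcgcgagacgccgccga
The matches in the other 5 genes are given with 12 bases on each side, to show the bases around and between the ends that the search fixed; HERPUD1 holds the shorter ERSE-II. They lie in chr12:103930204-103930246 and chr12:103930309-103930351 (plus strand) for HSP90B1, chr19:12938372-12938414 (plus strand) for CALR, chr2:10812841-10812883 (minus strand) for PDIA6, chr22:28800591-28800633 (minus strand) for XBP1 and chr16:56932013-56932047 (plus strand) for HERPUD1. The second HSP90B1 match and the CALR match run opposite to the gene, so that they read as the reverse complement.
HSP90B1, first: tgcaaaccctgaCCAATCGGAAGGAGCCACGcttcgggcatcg
HSP90B1, second: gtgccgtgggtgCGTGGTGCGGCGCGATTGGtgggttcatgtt
CALR: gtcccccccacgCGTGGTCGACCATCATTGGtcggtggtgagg
PDIA6: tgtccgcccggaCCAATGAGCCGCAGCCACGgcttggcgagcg
XBP1: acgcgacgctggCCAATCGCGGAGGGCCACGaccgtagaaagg
HERPUD1: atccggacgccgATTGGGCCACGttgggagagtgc
No exact match was found in these windows for DNAJB9, DNAJC3 and PDIA4, and a match or its absence here is a description of letters only. PDIA6, PDIA4 and XBP1 had 2 windows each, and the PDIA6 and XBP1 matches lay in 1 of the 2.

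**Figure D1:**
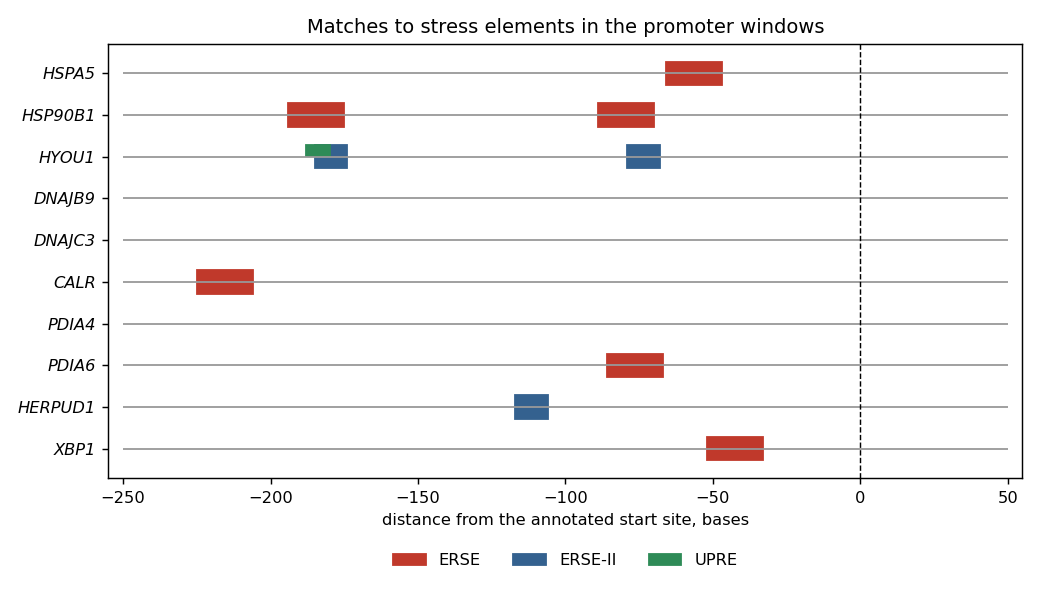
Exact matches to ERSE, ERSE-II and UPRE (coloured boxes, to scale) in the promoter window of each gene, by distance in bases from the annotated start site. For PDIA6, PDIA4 and XBP1 the 2 windows are drawn on 1 line; 7 of the 10 genes hold an ERSE or ERSE-II.

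With all 6 libraries, none of the 10 genes passed the threshold (limma, adjusted p from 0.739 to 0.783 over all tested genes), nor did any other gene, a background of 0%. The median log2 change of the 10 genes, LL-37 minus Ctrl on the log2(TPM + 1) scale, was -0.13, with 4 positive and 6 negative. All tested genes had a median of -0.20, and 2833 of the 14399 were positive. The sign of the median of the 10 genes depended on the scaling used and on 1 library. Quantile normalization, which put the median of all tested genes at -0.0067, left it at -0.12, with 4 of 10 positive. With median-of-ratios scaling, which put the median of all tested genes at 0.0023, it was 0.12, with 9 of 10 positive. Positive genes among all tested genes were not counted for either scaling. Without LL-37 replicate 3 the median of the 10 genes was 0.08, with 10 of 10 positive. All tested genes then had a median of -0.0039, and 7016 of the 14399 were positive. Still none of the 10 passed without LL-37 replicate 3 (smallest adjusted p = 0.432, limma), where 17 genes (0.118%) did. In LL-37 replicates 1 and 2, the 10 genes were 1.02 to 1.13 times the Ctrl mean. With all libraries, only CALR had groups that were apart, higher with LL-37, that is 1 of the 10 genes against 2.13% higher and 10.3% lower among all genes. Without LL-37 replicate 3, groups were apart for 4 (CALR, PDIA4, HERPUD1 and XBP1), all higher, against 12.3% higher and 12.9% lower among all genes. An unadjusted p under 0.05 was reached by 0 of the 10 with all libraries, against 363 genes, 2.52% of all (0.66% higher and 1.86% lower). Without LL-37 replicate 3 it was reached by 2 of the 10, HERPUD1 and XBP1, both higher, against 9.01% of all genes (4.92% higher and 4.1% lower).

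**Figure D2:**
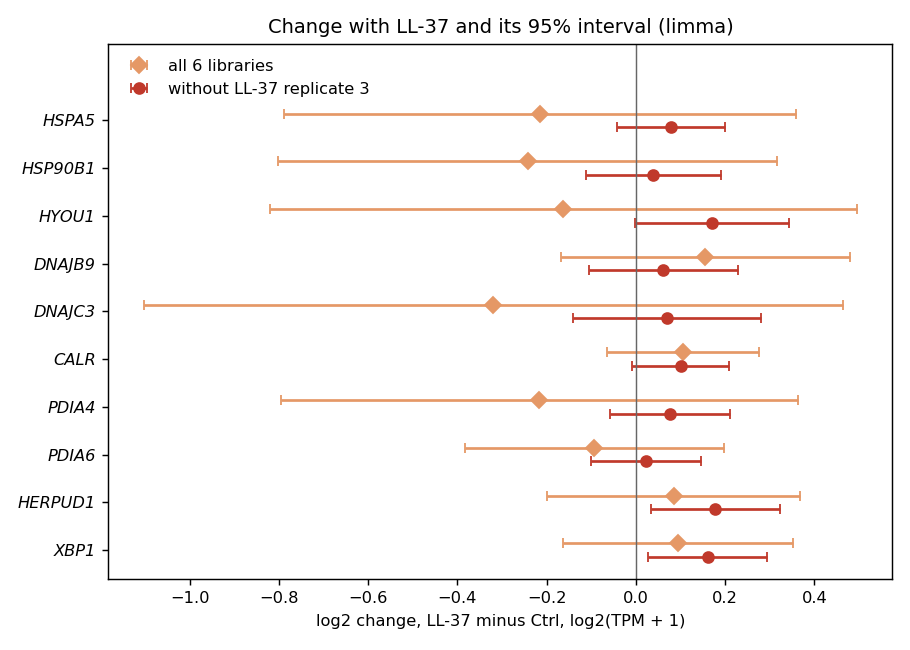
Log2 change with LL-37 (LL-37 minus Ctrl, horizontal axis) of each gene with its 95% interval from limma, with all 6 libraries (diamonds) and without LL-37 replicate 3 (circles). With all libraries 4 of 10 values are positive, and without that library all 10 are, between 0.02 and 0.18. Of all 14399 tested genes, 2833 are positive with all libraries and 7016 without that library.

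HSPA5 encodes BiP, the Hsp70 chaperone of the endoplasmic reticulum lumen, which also holds the sensors inactive (ENSG00000044574, chr9:125234853-125241330). It was 1366, 1286 and 719 TPM with LL-37, against 1255, 1218 and 1291 TPM in Ctrl. The first LL-37 library lay above all Ctrl libraries, the second within their range and the third far below it. The means were 1124 ± 353 TPM with LL-37 and 1255 ± 36.6 TPM in Ctrl (SD, n = 3 each). The log2 change was -0.21 ± 0.24 (SE; limma, adjusted p = 0.739) and 0.08 ± 0.05 without LL-37 replicate 3 (adjusted p = 0.760). The 95% interval of the first value ran from -0.79 to 0.36, and that of the second from -0.04 to 0.20. A change between 0.20 and 0.36 thus lies outside the second interval but inside the first.

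HSP90B1 encodes the Hsp90 chaperone of the endoplasmic reticulum, which folds integrins and Toll-like receptors (ENSG00000166598, chr12:103930107-103953645). It was 1778, 1713 and 971 TPM with LL-37, against 1823, 1579 and 1702 TPM in Ctrl. LL-37 replicates 1 and 2 lay inside the Ctrl range and replicate 3 below it. The log2 change was -0.24 ± 0.23 (SE; limma, adjusted p = 0.739), and 0.04 ± 0.07 without LL-37 replicate 3 (adjusted p = 0.929).

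HYOU1 encodes a large Hsp70-related chaperone that acts as a nucleotide exchange factor for BiP (ENSG00000149428, chr11:119044189-119057202). It was 421, 379 and 199.97 TPM with LL-37, against 348, 336 and 384 TPM in Ctrl. The first LL-37 library was the highest of all 6 and the third the lowest. The log2 change was -0.16 ± 0.28 (SE; limma, adjusted p = 0.783), and 0.17 ± 0.07 without LL-37 replicate 3 (adjusted p = 0.561), with a 95% interval of -0.0033 to 0.34.

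The J-domain proteins, which pass clients to BiP and start its ATP cycle, were the least abundant of the set and went opposite ways in LL-37 replicate 3. DNAJB9, which encodes ERdj4, a repressor of IRE1 through BiP (ENSG00000128590, chr7:108569568-108574850), was 44.6, 45.4 and 54.9 TPM with LL-37, against 44.7, 43.7 and 40.9 TPM in Ctrl. DNAJC3, which encodes a luminal co-chaperone also described as an inhibitor of PERK (ENSG00000102580, chr13:95677139-95794989), was 54.7, 49.3 and 22.55 TPM with LL-37, against 52.9, 44.8 and 51.1 TPM in Ctrl. For both genes LL-37 replicates 1 and 2 overlapped the Ctrl libraries, while replicate 3 was the highest library for DNAJB9 and the lowest for DNAJC3. The ratio of DNAJB9 to DNAJC3 TPM was 0.815, 0.9197 and 2.44 in the LL-37 libraries and 0.801 to 0.976 in Ctrl. The log2 change over 6 libraries was 0.16 ± 0.14 for DNAJB9 and -0.32 ± 0.33 for DNAJC3 (SE). Leaving out LL-37 replicate 3 gave 0.06 ± 0.07 for DNAJB9 and 0.07 ± 0.09 for DNAJC3.

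CALR encodes calreticulin, a calcium-binding lectin chaperone of glycoproteins that also takes part in loading MHC class I (ENSG00000179218, chr19:12938578-12944489). It was 2366, 2303 and 2362 TPM with LL-37, against 2237, 2151 and 2145 TPM in Ctrl. It was the only one of the 10 with every LL-37 library above every Ctrl library. The means were 2343 ± 35.0 TPM with LL-37 and 2178 ± 51.7 TPM in Ctrl (SD, n = 3 each). The log2 change was 0.11 ± 0.07 (SE; limma, adjusted p = 0.739), and 0.10 ± 0.05 without LL-37 replicate 3 (adjusted p = 0.5999). The 95% intervals were -0.06 to 0.28 and -0.0084 to 0.21.

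PDIA4 and PDIA6 encode protein disulfide isomerases, which form and exchange disulfide bonds, and the PDIA6 protein also limits signalling by IRE1 and PERK. PDIA4 (ENSG00000155660, chr7:149003062-149028641) was 391, 381 and 209.6 TPM with LL-37, against 378, 346 and 374.5 TPM in Ctrl. PDIA6 (ENSG00000143870, chr2:10783391-10837977) was 562, 529.99 and 428 TPM with LL-37, against 548, 523 and 542 TPM in Ctrl. For PDIA4 LL-37 replicates 1 and 2 lay just above every Ctrl library, and for PDIA6 only replicate 1 did; replicate 3 was the lowest library for both. Over 6 libraries the log2 change was -0.22 ± 0.24 for PDIA4 and -0.09 ± 0.12 for PDIA6 (SE). Leaving out LL-37 replicate 3 gave 0.08 ± 0.06 for PDIA4 and 0.02 ± 0.05 for PDIA6.

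HERPUD1 encodes a membrane protein that gathers the ubiquitin ligase complex for degradation of misfolded proteins (ENSG00000051108, chr16:56932048-56944863). It was 229.9, 218 and 184 TPM with LL-37, against 204, 187 and 202 TPM in Ctrl. LL-37 replicates 1 and 2 were the highest libraries and replicate 3 the lowest. The log2 change was 0.08 ± 0.12 (SE; limma, adjusted p = 0.756), and 0.18 ± 0.06 without LL-37 replicate 3 (adjusted p = 0.432). The 95% interval of the second value, 0.03 to 0.32, is not adjusted for the number of genes.

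XBP1 encodes the transcription factor whose messenger RNA is spliced by IRE1 (ENSG00000100219, chr22:28794555-28800597). It was 128, 126 and 111 TPM with LL-37, against 117, 114 and 111 TPM in Ctrl. LL-37 replicates 1 and 2 lay above every Ctrl library and replicate 3 just below them. The log2 change was 0.09 ± 0.11 (SE; limma, adjusted p = 0.740), and 0.16 ± 0.06 without LL-37 replicate 3 (adjusted p = 0.439, 95% interval 0.03 to 0.29, not adjusted). The values are gene totals, so that spliced and unspliced XBP1 were not separated.

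**Figure D3:**
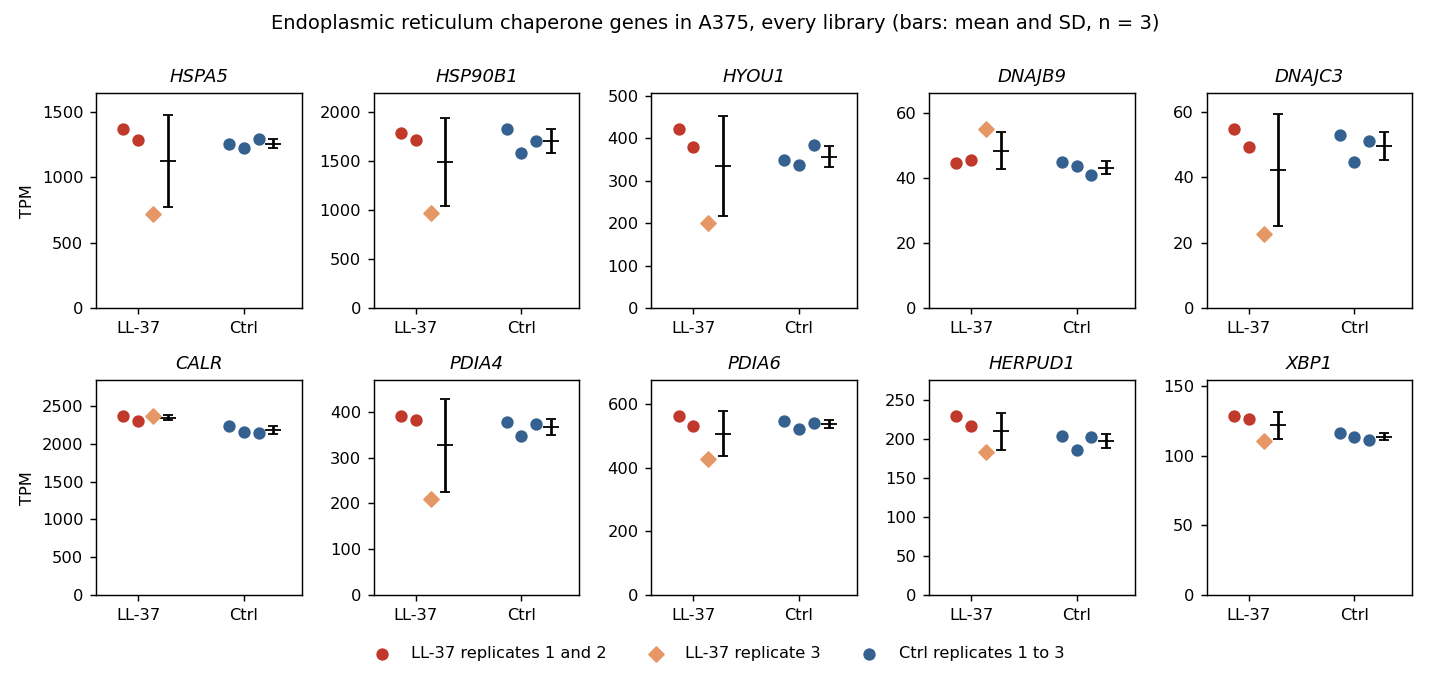
TPM of each of the 10 genes in every library, LL-37 left and Ctrl right, with mean and SD (black, n = 3 each). LL-37 replicate 3 (diamond) lies below every Ctrl library for 8 of the 10 genes and above them for DNAJB9 and CALR.

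The levels of the 10 genes spanned a wide range. In Ctrl the order was CALR, HSP90B1, HSPA5, PDIA6, PDIA4, HYOU1, HERPUD1, XBP1, DNAJC3 and DNAJB9. Across Ctrl libraries each gene lay above the next in that order without overlap, except PDIA4 and HYOU1, and DNAJC3 and DNAJB9 were apart by the smallest margin, 44.8 against 44.7 TPM. Across the LL-37 libraries PDIA4 and HYOU1 overlapped again, and so did HSP90B1 and HSPA5, HYOU1 and HERPUD1, and DNAJC3 and DNAJB9, all with replicate 3 included. In LL-37 replicates 1 and 2 only PDIA4 and HYOU1 overlapped. CALR, HSP90B1 and HSPA5 stood at the 99.1 to 99.4 percentile of tested genes by Ctrl level, and DNAJB9 at the 80.4 percentile. Together the 10 genes made up 0.734%, 0.703% and 0.526% of all TPM in the LL-37 libraries, against 0.701%, 0.654% and 0.684% in Ctrl.

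Within a library, ratios of these genes to HSPA5 remove what they share in scale. The PDIA4 to HSPA5 ratio was 0.286, 0.296 and 0.291 with LL-37 and 0.284 to 0.301 in Ctrl. The HSP90B1 ratio was 1.30, 1.33 and 1.35 with LL-37 and 1.297 to 1.45 in Ctrl. These 2 ratios thus overlapped between groups in every LL-37 library, replicate 3 included. The CALR ratio was 1.73, 1.79 and 3.28 with LL-37 and 1.66 to 1.78 in Ctrl, and the PDIA6 ratio was 0.411, 0.412 and 0.595 with LL-37 and 0.4196 to 0.436 in Ctrl. The HERPUD1 ratio was 0.168, 0.169 and 0.256 with LL-37, against 0.154 to 0.163 in Ctrl. It was above the Ctrl range in all 3 LL-37 libraries, by little in replicates 1 and 2 and by much in replicate 3. The XBP1 ratio, 0.0941, 0.0982 and 0.154 with LL-37 and 0.0861 to 0.0935 in Ctrl, was likewise above the Ctrl range in all 3. In replicate 3, however, HERPUD1 and XBP1 themselves lay below every Ctrl library. HSPA5, the divisor, was 719 TPM there, against 1218 to 1291 TPM in Ctrl. How many of all genes have such a ratio to HSPA5 was not counted. The DNAJC3 ratio was 0.0400, 0.0384 and 0.0314 with LL-37 and 0.0367 to 0.0422 in Ctrl, below that range in replicate 3. The HYOU1 ratio was 0.308, 0.295 and 0.278 with LL-37 and 0.276 to 0.297 in Ctrl, within it in replicates 2 and 3.

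Transcript length moved with the position of LL-37 replicate 3. Principal transcripts of the 10 genes, from GENCODE 29, ran from 1903 nt (CALR) to 5591 nt (DNAJC3). The difference of LL-37 replicate 3 from the mean of replicates 1 and 2, in log2(TPM + 1), was 0.02 for CALR, -0.20 for XBP1 (2173 nt), -0.88 for HSPA5 (3908 nt), -0.996 for HYOU1 (4529 nt) and -1.17 for DNAJC3. Over the 10 genes the difference and the log2 length had a Pearson r of -0.78 and a Spearman rho of -0.84, and over all 13887 tested genes with a length r was -0.50, as a description of the same 3 libraries. By length quintile, the median difference over all genes was -0.06 for transcripts of 190 to 1600 nt and -1.08 for those of 5457 nt and more. Length did not order all of them: among transcripts of 2682 to 2946 nt, the difference was 0.28 for DNAJB9, -0.28 for HERPUD1, -0.35 for PDIA6, -0.85 for HSP90B1 and -0.88 for PDIA4. With each library's length trend removed, a setting chosen after seeing the data, the median log2 change of the 10 genes was 0.10, with 8 positive, and none passed. Positive genes among all tested genes were not counted in that setting. The part of length in the differences was not tested further.

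**Figure D4:**
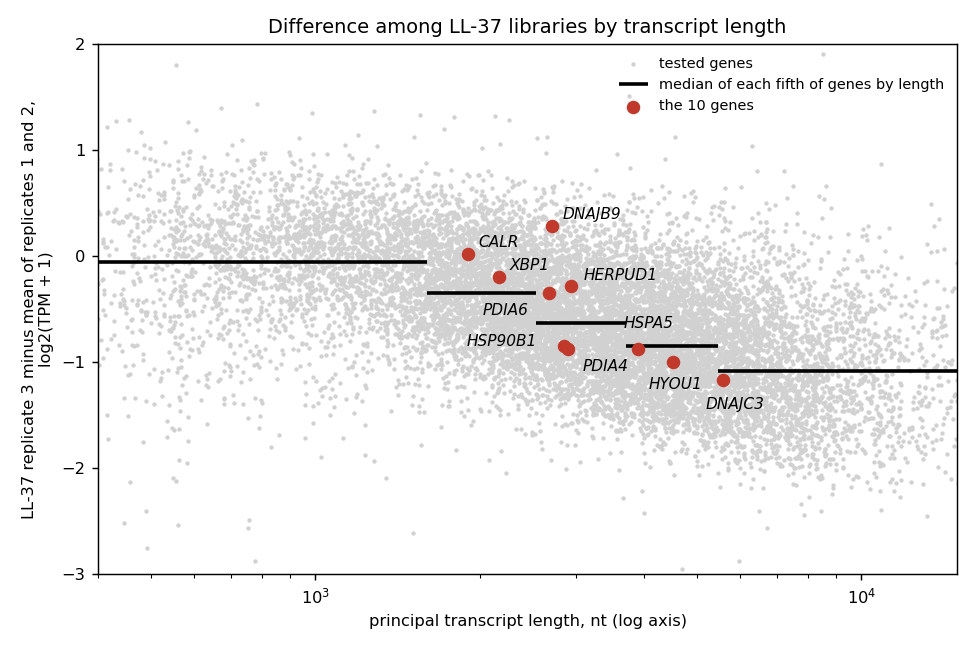
Difference of LL-37 replicate 3 from the mean of LL-37 replicates 1 and 2, in log2(TPM + 1), against principal transcript length in nt on a log axis, for the 10 genes (red) and the tested genes (grey; genes outside the drawn range are not shown). Black lines are medians of 5 length quintiles, which go from -0.06 to -1.08; the 10 genes go from 0.28 for DNAJB9 to -1.17 for DNAJC3.

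Around these 10 genes, 8 lists of the same pathway and of neighbouring stress responses were read in the same fit. None of their genes passed the threshold, with or without LL-37 replicate 3. Medians below are of log2 changes, given without LL-37 replicate 3 first and with all libraries second, where all tested genes had -0.0039 and -0.20. The 12 sensors and their processing factors had -0.03 and -0.31, and without LL-37 replicate 3 groups were apart for 3 higher and 1 lower, against 12.3% higher and 12.9% lower among all genes. The lower one was TMBIM6, which encodes a membrane protein known to dampen IRE1 signalling and was the most abundant of the list. It was 297, 281 and 196 TPM with LL-37, against 299, 299 and 314 TPM in Ctrl, so that its groups were apart with all libraries too. Its log2 change was -0.26 ± 0.17 (SE; limma, adjusted p = 0.739), and -0.07 ± 0.06 without LL-37 replicate 3 (adjusted p = 0.8203). MBTPS1, the Golgi protease that makes the first cut in ATF6, was 76.9, 69.9 and 32.6 TPM with LL-37, against 77.2, 71.0 and 79.3 TPM in Ctrl. LL-37 replicates 1 and 2 overlapped the Ctrl libraries for MBTPS1 and replicate 3 lay far below them. The 3 sensors themselves were named after their values were seen. ERN1, which encodes IRE1, was 6.87, 6.03 and 1.67 TPM with LL-37, against 5.26, 5.30 and 5.99 TPM in Ctrl. ATF6 was 34.8, 29.7 and 17.1 TPM with LL-37, against 35.3, 31.0 and 31.7 TPM in Ctrl. EIF2AK3, which encodes PERK, was 14.7, 14.0 and 8.39 TPM with LL-37, against 20.1, 13.3 and 16.6 TPM in Ctrl. Levels of ATF6 and EIF2AK3 in LL-37 replicates 1 and 2 overlapped those in Ctrl, and those of ERN1 lay just above.

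The 25 other folding factors of the endoplasmic reticulum had 0.02 and -0.11. Without LL-37 replicate 3, 15 of 25 were positive, against 7016 of all 14399 tested genes. PPIB, a cyclophilin that isomerises proline bonds, was 1879, 1896 and 2469 TPM with LL-37, against 1871, 1897 and 1832 TPM in Ctrl. PDIA3, a disulfide isomerase that works with calreticulin, was 1128, 1064 and 715 TPM with LL-37, against 1158, 1060.3 and 1103 TPM in Ctrl. LL-37 replicates 1 and 2 lay within the Ctrl range for both, and replicate 3 was the highest library for PPIB and the lowest for PDIA3. Of these 25 genes, 8 were apart higher and 1 lower without LL-37 replicate 3, against 12.3% higher and 12.9% lower among all genes.

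Degradation, translocation and glycosylation genes had medians within 0.02 of that of all tested genes without LL-37 replicate 3. The degradation list (19 of 20 genes tested, DERL3 being listed at 0) had -0.02 and -0.28, and 2 of its 19 genes were apart higher and 2 lower without that library, near the 12.3% and 12.9% of all genes. At the highest levels in the list stood OS9, a lectin that recognises misfolded glycoproteins, at 184, 182 and 88.0 TPM with LL-37 and 194, 190.3 and 208 TPM in Ctrl, and VCP, the ATPase that pulls them out. VCP was 141, 137 and 91.4 TPM with LL-37, against 139.5, 139 and 145 TPM in Ctrl. The 17 translocation and signal peptidase genes had -0.02 and -0.04, led in level by the translocon-associated SSR2 and SSR4. SSR2 was 765, 800.2 and 1199 TPM with LL-37, against 779.8, 869.9 and 806.5 TPM in Ctrl, and SSR4 was 581, 567 and 742 TPM with LL-37, against 606, 637 and 611 TPM in Ctrl. For all 4 of these genes LL-37 replicate 3 lay outside the range of the other 5 libraries.

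The 10 glycosylation and glucosidase genes had -0.0025 and -0.30. PRKCSH, the beta subunit of glucosidase II, was 749.8, 684 and 307 TPM with LL-37, against 719, 693 and 772 TPM in Ctrl. DDOST, a subunit of the oligosaccharyltransferase, was 574, 561 and 606 TPM with LL-37, against 559, 605 and 599 TPM in Ctrl. The 10 calcium store genes had 0.05 and -0.24. ATP2A2, the pump that fills the store, was 223, 202 and 52.2 TPM with LL-37, against 202, 185 and 218 TPM in Ctrl, and TMCO1, a calcium load-activated channel, was 202, 189.8 and 222 TPM with LL-37, against 214, 200.3 and 193 TPM in Ctrl. PRKCSH and ATP2A2 were far lower in LL-37 replicate 3 than in any other library, and DDOST and TMCO1 were not.

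The last lists cover other stress responses. The ATF4 and CHOP arm had 0.31 and 0.19 over 12 genes. PERK can start this arm, but the activity of PERK was not measured here. Without LL-37 replicate 3, 10 of 12 were apart, all higher, against 12.3% of all genes. The smallest adjusted p of the 12 was then 0.0911 (limma). With all libraries 5 of 12 were apart, all higher, against 2.13% of all genes. ATF4 itself was 744, 722 and 764 TPM with LL-37, against 645, 644 and 633 TPM in Ctrl. Its log2 change was 0.19 ± 0.05 (SE) without LL-37 replicate 3 and 0.21 ± 0.08 with all libraries. DDIT3, which encodes CHOP, was 226, 233 and 168 TPM with LL-37, against 176, 181 and 199.9 TPM in Ctrl. Groups were apart for ATF4 with all libraries, and for DDIT3 only without LL-37 replicate 3. The 13 heat shock genes, mostly cytosolic but with HSPD1 and HSPE1 of the mitochondrial chaperonin, had -0.06 and -0.24. Of the 13, 1 was apart, higher, without LL-37 replicate 3, against 12.3% of all genes. HSPA8, the constitutive cytosolic Hsp70, was 753, 724 and 964 TPM with LL-37, against 779, 817 and 716 TPM in Ctrl, and HSP90AB1, a cytosolic Hsp90, was 728, 691 and 431 TPM with LL-37, against 746, 696 and 734 TPM in Ctrl. The 10 genes, at 0.08, had a median between these 2 lists without that library, and the difference between lists was not tested.

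**Figure D5:**
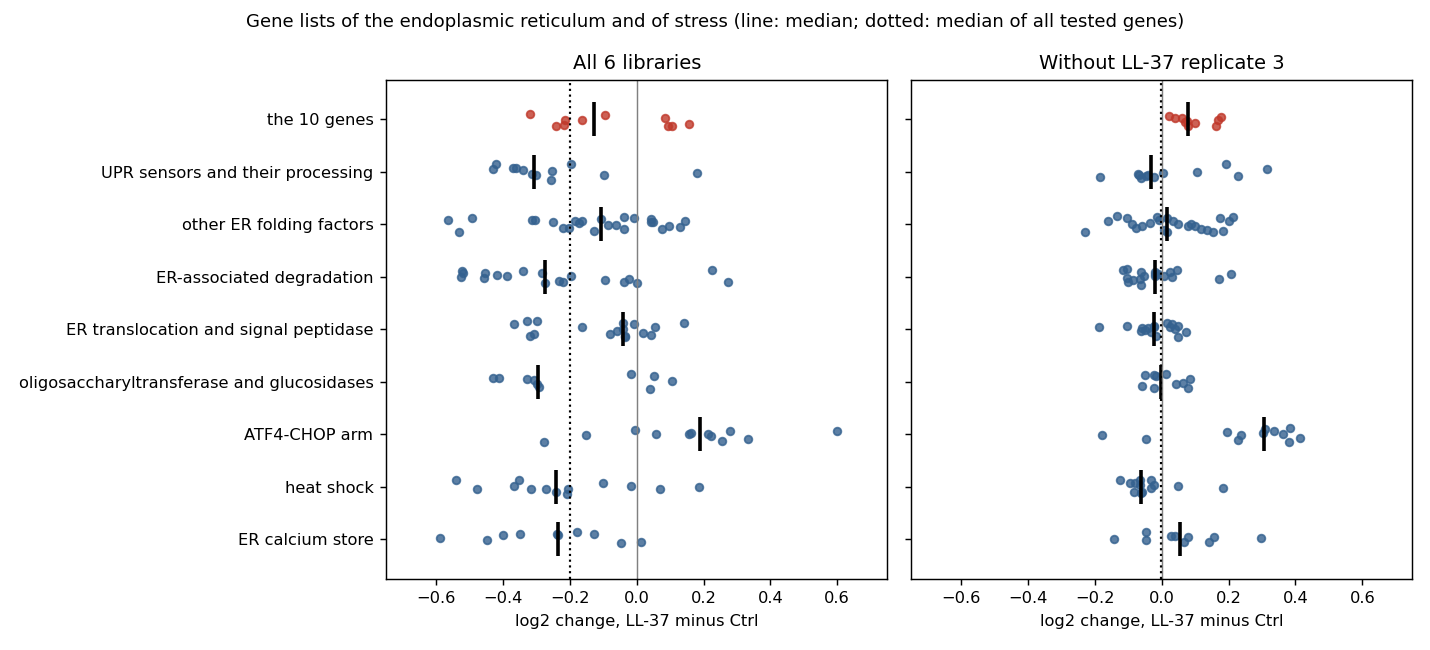
Log2 change (LL-37 minus Ctrl) of each tested gene in the 10-gene set (red) and 8 related lists (blue), with list medians as black lines and the median of all tested genes dotted, for all 6 libraries (left) and without LL-37 replicate 3 (right). Without that library the 10 genes lie between 0.02 and 0.18 and the ATF4 and CHOP arm has a median of 0.31.

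LL-37 replicate 3 lay below every Ctrl library for 8 of the 10 genes and for 76.8% of all tested genes. Genes most like HSPA5, by Pearson r of log2(TPM + 1) over 6 libraries among 7566 genes with a symbol and a mean of at least 10 TPM, were SMG5, TBC1D8, SV2A, ARHGEF18 and ZC3H7B (r from 0.9995 to 0.9999). SMG5, which encodes a nonsense-mediated decay factor, was 79.7, 70.2 and 20.1 TPM with LL-37, against 67.2, 62.2 and 71.2 TPM in Ctrl. Over the 5 libraries without LL-37 replicate 3, the closest were SMG5, FASN, TRIM8, TBC1D8 and INO80 (r from 0.996 to 0.998). FASN, which encodes fatty acid synthase, was 343, 301 and 99.5 TPM with LL-37, against 279.8, 261 and 303 TPM in Ctrl. Among the other 9 genes, over those 5 libraries, r with HSPA5 was highest for HYOU1 (0.98) and HERPUD1 (0.92) and lowest for HSP90B1 (0.56) and DNAJB9 (0.06). Over all 6 libraries DNAJB9 had r of -0.91 with HSPA5 and PDIA4 had 0.996, against 0.845 for PDIA4 without LL-37 replicate 3.

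Genes with an ERSE or ERSE-II in a promoter window were also read as a set. Of the 28 that were tested, 7 of them among the 10 genes, none passed the threshold in either fit. Their median log2 change was 0.04 without LL-37 replicate 3 and -0.17 with all libraries. Groups were apart for 7 higher and 1 lower without that library, against 12.3% higher and 12.9% lower among all tested genes. The 7 include CALR, HERPUD1 and XBP1 of the 10 genes, and CRELD2 and SDF2L1 of the other folding factors, which were already counted above. Within the 10 genes, the 3 without a match had log2 changes of 0.06 (DNAJB9), 0.07 (DNAJC3) and 0.08 (PDIA4) without LL-37 replicate 3, inside the 0.02 to 0.18 of the 7 with one.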

How the data were processed

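Strand-specific libraries of poly(A) RNA were sequenced from A375 cells. The protocols, per the labels, name keratinocytes as the cells lysed. The authors deposited 1 table of TPM for the human libraries. The build GRCh38 is named in the submitters' processing notes, and how reads were quantified is not given in the sources used here. Since TPM are scaled to a fixed total in each library, a loss of long transcripts in a library would move other genes. Whether any library had such a loss was not tested. Groups came from the labels (n = 3 each). The mouse table was not used.

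Symbols were matched for 62541 of 63140 identifiers. Values were analysed as log2(TPM + 1), a scale on which changes of low genes are understated. The filter kept 14399 genes, those at 1 TPM or more in at least 3 of 6 libraries. The test was limma 3.58.1 (intensity trend, two-sided), run in R 4.3.3. A Benjamini-Hochberg adjusted p under 0.05 over all of them was the threshold. Tests were checked on simulated data. The 10 genes and all lists were chosen with earlier results of these data known. Named genes were the 10, the 2 of highest mean level in each other list (none passed), and the 5 most like HSPA5. The 3 sensors and genes named for groups that were apart were added after their values were seen. Lengths and gene positions came from GENCODE 29 (longest transcript tagged principal, otherwise the longest), and promoters from RefSeq. Alternatives were pseudocounts, filters, scalings, no trend, a minimum change, a replicate block, TPM without mitochondrially encoded genes, each library left out and, chosen after seeing the data, length trend removal.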

Additional observations from a re-analysis of the deposited data

How the results depend on the processing

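No alternative put any of the 10 genes past the threshold, in 19 settings with all or some libraries (lowest adjusted p over settings 0.217, for HERPUD1). The count of all genes past the threshold was 0, became 17 without LL-37 replicate 3, was 10 without it after removal of length trends, and 9 without it after median-of-ratios scaling. It was 0 in the other 16 settings, so that leaving out each library gave 0 to 17. The median log2 change of the 10 genes, -0.13, became 0.12 with median-of-ratios scaling, 0.10 with length trends removed, 0.078 without LL-37 replicate 3, 0.078 without it after removal of length trends and 0.078 without it after median-of-ratios scaling. It was -0.27 to 0.078 over libraries left out. Its difference from the median of all tested genes was 0.07, but -0.11 with quantile normalization, -0.06 with no filter and -0.0060 with a pseudocount of 5. CALR, DNAJB9, HERPUD1 and XBP1 were positive in every setting run.

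The other 6 genes turned positive in some settings. With median-of-ratios scaling the log2 change was 0.031 for HSPA5, 0.0027 for HSP90B1, 0.082 for HYOU1, 0.028 for PDIA4 and 0.15 for PDIA6. With length trends removed it was 0.046 for HSPA5, 0.13 for HYOU1, 0.0067 for DNAJC3 and 0.078 for PDIA6. Without LL-37 replicate 3 and with length trends removed it was 0.081 for HSPA5, 0.035 for HSP90B1, 0.17 for HYOU1, 0.075 for DNAJC3, 0.071 for PDIA4 and 0.018 for PDIA6. Without that library and with median-of-ratios scaling it was 0.080 for HSPA5, 0.040 for HSP90B1, 0.17 for HYOU1, 0.070 for DNAJC3, 0.076 for PDIA4 and 0.023 for PDIA6. Over libraries left out one at a time, the range was -0.38 to 0.079 for HSPA5, -0.40 to 0.039 for HSP90B1, -0.37 to 0.17 for HYOU1, -0.55 to 0.070 for DNAJC3, -0.37 to 0.076 for PDIA4 and -0.17 to 0.023 for PDIA6. The cause was not tested. Correlations of deviations from the group means were 0.09, -0.20 and -0.17 for replicate numbers 1, 2 and 3, and showed no pairing of the samples. They cannot settle whether samples were paired, since the LL-37 mean includes the deviating replicate 3. With a replicate block 0 genes passed. The TPM keep no depth, so what depth limits cannot be given.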
